A study of Paxillus involutus with 12 samples.

Results

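The first interval of carbon starvation in the ectomycorrhizal fungus Paxillus involutus was examined on the 3 arrays harvested at day 6 and the 3 harvested at day 2, which are 6 of the 12 arrays of the series. The arrays were chosen by their titles alone, and all 12214 sequences were compared. Both groups were mycelium of strain ATCC 200175, grown without a plant on glass beads in Minimum Melin Norkrans medium, to which ammonium had been added to give a C/N ratio of 3. All cultures had first spent 10 days in a pre-culture and 24 h without nitrogen. They differed in the time of harvest, and each array held RNA from a separate pool of 2 cultures. Cultures harvested at days 8 and 13, again with 3 arrays each, make up the rest of the series. There were no cultures of the same ages with added carbon, so starvation and culture age cannot be told apart.

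Ectomycorrhizal fungi live around and between the root cells of trees, pass mineral nutrients to the host and receive sugars in return. A mycelium cut off from sugar falls back on its own reserves. Filamentous fungi that run out of carbon are known to break down parts of their own cells, through autophagy, in which cytoplasm is delivered to the vacuole for digestion, and through secreted and vacuolar hydrolases.

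The array identifies its sequences only by number. The gene information column held 0 entries. A reference table listed 18033 genes, and 0 of the 12214 IDs matched one, so the files do not pair IDs with genes. Sequences are therefore named by ID, no gene group could be described, and the mycelium label could not be checked against marker genes. No probe or transcript sequence is shown for the same reason. Several IDs can stem from the same gene.

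All values are on a log2 scale, made by the authors with RMA, so a difference of 1 is a 2-fold change. The medians of the 6 arrays lay between 11.35 and 11.38, and a control feature of random probes lay between 4.53 and 4.70. Across sequences, arrays of day 6 correlated with each other at r = 0.997 to 0.998, arrays of day 2 at r = 0.989 to 0.995, and arrays of different days at r = 0.970 to 0.983. The sample descriptions give 2 position numbers, which disagree for days 6 and 8: day 6 has subarray numbers 7 to 9 but array numbers 4 to 6, and day 8 has the reverse. The titles were followed. The counts of called and of 2-fold changes, of their late calls and of all reversals were repeated with the days exchanged. The values by level, the levels at later days, the 2-fold reversals and the levels of the named sequences are given in the text for the titles only. The arrays of a day lay side by side on 1 chip, so chip position and day cannot be told apart.

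The first step moved many sequences by little. Of the 12214 sequences, 5635 (46.1%) differed between day 6 and day 2 at a limma adjusted p under 0.05, the threshold for a call throughout. They were split almost evenly, with 2808 higher (23% of all sequences) and 2827 lower (23.1%). The median size of a called difference was 0.46 on the log2 scale, or 1.37-fold, and 3832 of the called sequences (68.0%) had changed by less than 1.5-fold. Over all sequences the median absolute difference was 0.24, the 95th percentile 0.90 and the 99th percentile 1.42.

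Large changes were few, and with the days as titled rises outnumbered falls among them. Rises of 2-fold or more were called for 282 sequences (2.31%), and falls of that size for 152 (1.24%). In 2 of these rises and 1 of these falls, no array of the dimmer day was 2-fold above the control. They count by measured means, and only paxillus_11006 among them had a bound of at least 2-fold. With the labels of days 6 and 8 exchanged there were 511 rises and 501 falls, so the excess of rises was absent. Between 3-fold and 4-fold there were 39 rises and 13 falls. At 4-fold and over the order turned, with 5 rises and 8 falls. The rises were paxillus_12204, paxillus_3111, paxillus_1760 and paxillus_5316, listed by size after their values were seen, and paxillus_11006, which counts by its measured means only, since it lay near the control at day 2 and its change is a bound. paxillus_5316 was the only one of them that rose again in the late step, with means of 8.35 at day 13 and 7.79 at day 8 (limma adjusted p = 4.75e-03). Against a minimum change of 1.5-fold in the test itself (limma treat), 96 sequences were higher and 107 lower, so the excess of rises among the 2-fold changes was absent there.

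Many sequences could be shown to have stayed near their level. For 7870 sequences (64.4%) the 95% confidence interval of the difference lay within 1.5-fold in both directions. That number holds 5966 sequences that were not called and 1904 that were called, so the called ones changed measurably but by less than 1.5-fold. Another 613 were neither called nor bounded in this way, and for these the 6 arrays do not settle whether the level moved.

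The plain order of the arrays gave a similar picture. On all 3 arrays of day 6, 3474 sequences lay above all 3 arrays of day 2, and 3418 lay below them, together 56.4% of the sequences. Of these, 1403 were not called. Conversely, 146 called sequences had overlapping arrays, of which 1 was at least 2-fold changed. A gap of more than 1 on the log2 scale between the nearest arrays of the days was seen for 38 sequences above and 57 below.

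**Figure D1:**
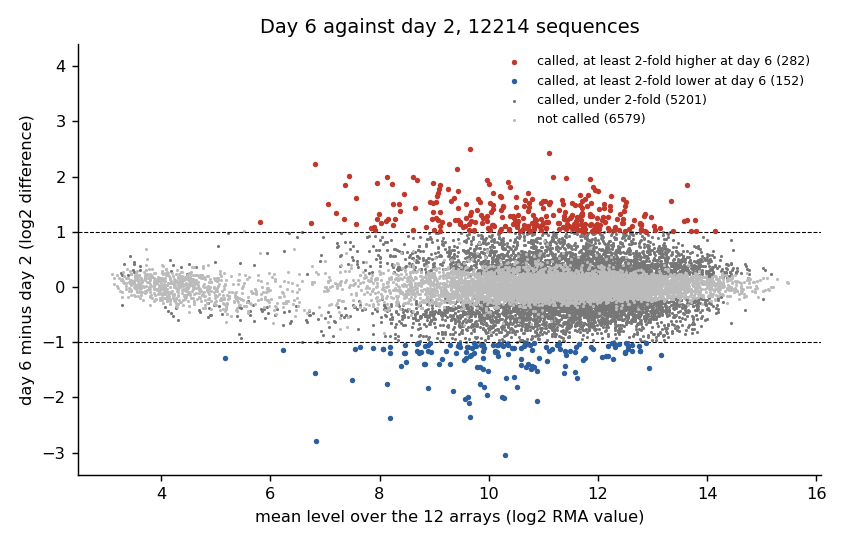
The log2 difference between day 6 and day 2 of each of the 12214 sequences (vertical axis) against its mean level over the 12 arrays (horizontal axis, log2 RMA value). Dashed lines mark 2-fold, red points are the 282 called rises and blue points the 152 called falls of at least 2-fold, and most called sequences, in dark grey, lie between the lines.

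Large changes were more frequent among dim sequences, and the balance of directions shifted with level. The sequences were divided into 5 equal groups by their mean level over the 12 arrays. That mean holds the day 6 and later values. A lasting rise therefore moves a sequence towards the brighter groups, and a lasting fall towards the dimmer ones. How far this shaped the balance of directions was not tested. In the dimmest group, up to a level of 9.80, 73 of 2443 sequences were at least 2-fold higher at day 6 and 58 at least 2-fold lower. In the brightest group, from 12.60, these numbers were 25 and 8 of 2443. Falls of at least 2-fold thinned out faster than rises: they made up 2.37% of the dimmest group and 0.327% of the brightest, while rises made up 2.99% and 1.02%.

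Calls of any size showed another pattern, with the same limit of the mean level. In the dimmest group 401 sequences were called higher and 481 lower, and in the brightest group 694 higher and 519 lower. The share called was 36.1% in the dimmest group and between 46.5% and 49.7% in the other groups. The share bounded within 1.5-fold grew with level, with 56.2% in the dimmest group and 74.7% in the brightest. The spread between arrays fell with level on both days. The median SD over 3 arrays in the dimmest group was 0.103 at day 6 and 0.178 at day 2, and in the brightest group 0.0637 at day 6 and 0.0855 at day 2. The part of this spread in the level pattern was not tested.

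Among the 200 brightest sequences, with mean levels of 14.11 and over, 51 were called higher at day 6 (25.5%) and 13 lower (6.5%), beside 23% and 23.1% of all sequences. Only paxillus_13390 among them was at least 2-fold changed, with means of 14.69 ± 0.04 at day 6 and 13.68 ± 0.20 at day 2 (SD, n = 3 each), and it is named for that count. In the late step it fell, with means of 13.58 at day 13 and 14.64 at day 8 (limma adjusted p = 6.50e-04). Of the 200, 183 were bounded within 1.5-fold. Their median difference was 0.07, against 0.003 over all sequences. The 200 were picked by a mean that holds the day 6 and later values, which favours lasting rises over lasting falls. How far this shaped the excess of called rises was not tested.

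**Figure D2:**
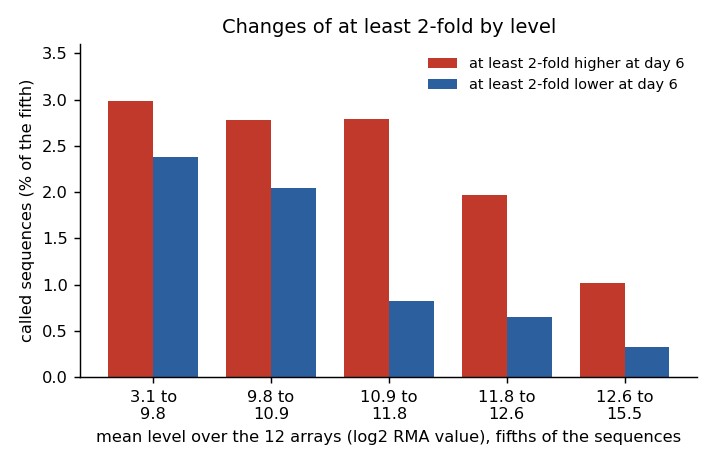
The share of sequences called at least 2-fold higher (red) or lower (blue) at day 6 than at day 2, as a percentage of each of 5 equal groups of sequences (vertical axis), by mean level over the 12 arrays (horizontal axis, log2 RMA value). Falls drop to 0.327% in the brightest group, where rises still make up 1.02%. The mean level holds the day 6 and later values, so lasting rises are placed brighter and lasting falls dimmer.

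A change across the control level was rare. A sequence was counted as above the control on an array where it was at least 2-fold brighter than that array's random-probe feature. On all 6 arrays, 11543 sequences were above it, and on none of the 6, 570. Only 3 sequences were above it on all 3 arrays of day 6 and on none of day 2, namely paxillus_11006 and paxillus_6517, which were called, and paxillus_13595, which was not. The reverse held for 4 sequences, all called: paxillus_12966, paxillus_13210, paxillus_13353 and paxillus_13500. Their falls are bounds, set by 2-fold over the control: paxillus_12966 was at least 1.43-fold lower at day 6, with measured means of 5.47 at day 6 and 6.09 at day 2, and paxillus_13353 at least 1.37-fold lower, with measured means of 4.74 and 6.03 on the same days. Apart from paxillus_11006 these were singled out after their values were seen.

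The clearest separation between the days was found in 4 sequences, which are the rises and falls with the widest gap between the nearest arrays of the days, among called sequences with 10 probe pairs. paxillus_11006 had the widest gap of the rises. Its levels were 7.42, 7.43 and 7.30 on the day 6 arrays, against 5.37, 4.83 and 5.25 on the day 2 arrays. At day 2 it was on none of the arrays 2-fold above the control, so its change is given as a bound: it was at least 3.32-fold higher at day 6, with measured means of 7.38 ± 0.08 at day 6 and 5.15 ± 0.29 at day 2 (SD, n = 3 each; limma adjusted p = 9.64e-06). It was on all day 8 and day 13 arrays between 6.93 and 7.79, above every day 2 array.

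paxillus_12204 stood at 10.55, 10.53 and 10.29 at day 6, against 8.51, 7.61 and 7.79 at day 2. The day 6 arrays lay close together, while day 2 array 1 stood above the other day 2 arrays. Its means were 10.46 ± 0.14 at day 6 and 7.97 ± 0.48 at day 2 (SD, n = 3 each), a difference of 2.49 ± 0.22 (SE; limma adjusted p = 1.24e-05).

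The falls were as sharp. paxillus_1460 had levels of 9.62, 9.63 and 9.84 at day 6, against 12.37, 13.23 and 12.58 at day 2. The nearest arrays were 2.53 apart, the widest gap of any sequence named here. It was 8.19-fold lower at day 6, with an interval of 6.38-fold to 10.5-fold (limma fit, 95%). Between day 8 and day 13 it did not pass the threshold, with a difference of -0.03 ± 0.17 (SE; limma adjusted p = 0.890).

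paxillus_11725 was the steadiest at day 2. Its levels were 9.47, 9.17 and 9.42 at day 6, against 11.70, 11.74 and 11.70 at day 2, where the arrays spanned only 0.04. It was 5.13-fold lower at day 6 (log2 difference -2.36 ± 0.12, SE; limma adjusted p = 6.01e-07). It stood lower again at day 13 than at day 8, with means of 8.60 and 8.97 (difference -0.38 ± 0.12, SE; limma adjusted p = 0.0224).

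The day 2 arrays spread more widely in the rises of at least 2-fold than in the falls. In the set of 282 rises the median SD between arrays was 0.106 at day 6 and 0.453 at day 2, while over all sequences it was 0.0790 and 0.129. An SD over 0.5 was found in 4 of the 282 at day 6 and in 120 at day 2. The 152 falls had a median SD of 0.101 at day 6 and 0.142 at day 2, with an SD over 0.5 in 1 and 6 of them. The day 13 levels did not enter the differences that chose the sets, though their spread entered the limma test. At day 13 the median SD was 0.298 for the rises, 0.236 for the falls and 0.139 for all sequences.

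The spread of the rises at day 2 lay mostly in 1 array. Day 2 array 1 was the day 2 array nearest to the day 6 mean in 229 of the 282 rises (81.2%), in 74 of the 152 falls (48.7%) and in 42.5% of all sequences. The median level of the 282 rises was 10.44 on that array, and 9.84 and 9.95 on the other day 2 arrays. The day 6 mean was at least 2-fold above day 2 array 1 in 95 of the 282, above array 2 in 266 and above array 3 in 253. For the falls the same counts were 113, 149 and 119 of 152. In all, 69 rises and 88 falls were at least 2-fold from every day 2 array.

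Without day 2 array 1, the rises of at least 2-fold numbered 413, of which 272 were among the 282, and the falls numbered 174, of which 142 were among the 152. Without day 2 array 2, 215 rises and 138 falls were left. Why day 2 array 1 stood closer to day 6 was not tested. Over all sequences it correlated with the day 6 arrays at r = 0.980 to 0.983, where day 2 array 2 gave 0.970 to 0.972 and day 2 array 3 gave 0.976 to 0.979.

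**Figure D3:**
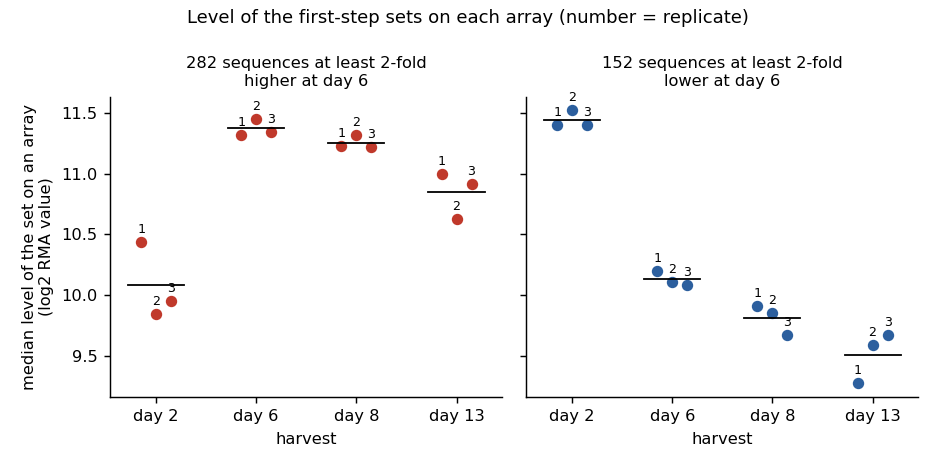
The median level on each of the 12 arrays (vertical axis, log2 RMA value) of the 282 sequences at least 2-fold higher (left) and the 152 at least 2-fold lower (right) at day 6 than at day 2, by harvest (horizontal axis). Numbers are replicates and lines the mean of 3 arrays; the day 2 and day 6 values follow from the choice of the sets, and day 2 array 1 lies at 10.44 in the left panel, above its neighbours at 9.84 and 9.95.

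What became of the changes can be read from the days 8 and 13. In the 282 rises, the median level of the set averaged 10.08 ± 0.32 over the day 2 arrays and 11.38 ± 0.07 over the day 6 arrays. It was 11.26 ± 0.05 over the day 8 arrays and 10.85 ± 0.19 over those of day 13 (SD, n = 3 each). In the 152 falls it was 11.44 ± 0.07, 10.13 ± 0.06, 9.81 ± 0.13 and 9.51 ± 0.21 on the same days. The fallen set thus had a lower median at each later harvest, and the risen set was highest at day 6. The medians at days 2 and 6 follow from the choice of the sets, since it was made on those arrays.

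Counted by sequence, 281 of the rises had no overlap between the day 6 and day 2 arrays. Of these, 96 had a day 13 mean at or above the lowest day 6 array, 100 lay between the days, and 85 were at or below the highest day 2 array. At day 8 the same counts were 148, 117 and 16. Of the 152 falls, 123 had a day 13 mean at or below the highest day 6 array, 23 lay between, and 6 were back at or above the lowest day 2 array. At day 8, 133 of the falls were at or below the highest day 6 array, 19 lay between and 0 were back.

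The late step, day 13 against day 8, shares no array with the first step, so its calls are a separate measurement on the same sequences. Over all 12214 sequences, 3148 were called higher (25.8%) and 3461 lower (28.3%) at day 13 than at day 8. Among the 282 rises of the first step, 32 were called higher (11.3%) and 111 lower (39.4%) in the late step. Among the 152 falls, 26 were called higher (17.1%) and 76 lower (50%). In both sets more sequences were called lower than higher in the late step, and the median late difference was -0.35 in the risen set and -0.34 in the fallen set.

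Changes under 2-fold had other counts on the side of the falls. Of 2526 rises under 2-fold, 934 (37.0%) were lower and 486 (19.2%) higher at day 13 than at day 8. Of 2675 falls under 2-fold, 725 (27.1%) were lower and 853 (31.9%) higher. Of the 6579 sequences not called in the first step, 24.5% were lower and 26.6% higher. Across all sequences the differences of the first and the late step were weakly and inversely related (r = -0.086, rho = -0.125, over 12214 sequences that share the arrays).

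The late calls of the risen set depended on single arrays and on the day labels. With any 1 of the 12 arrays left out, 29.4% to 44.8% of the rises were lower in the late step. The highest share came without day 2 array 1 (185 of 413), where 29.6% of all sequences were lower. The lowest came without day 8 array 2, where 24.3% of all sequences were lower. The share lay closest to that of all sequences without day 13 array 2, with 30.5% beside 27.5%. In the fallen set the share stayed between 44.1% (without day 8 array 1) and 55.1% (without day 2 array 2). All sequences gave 24.4% and 29.0% in these settings. With the labels of days 6 and 8 exchanged, 119 of 511 rises (23.3%) were lower at the end and 39.1% higher, where all sequences gave 28.9% and 29.6%. The falls then gave 344 of 501 (68.7%) lower. The excess of late falls among the first-step rises was thus absent with the days exchanged, while that among the first-step falls was present under either labelling.

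**Figure D4:**
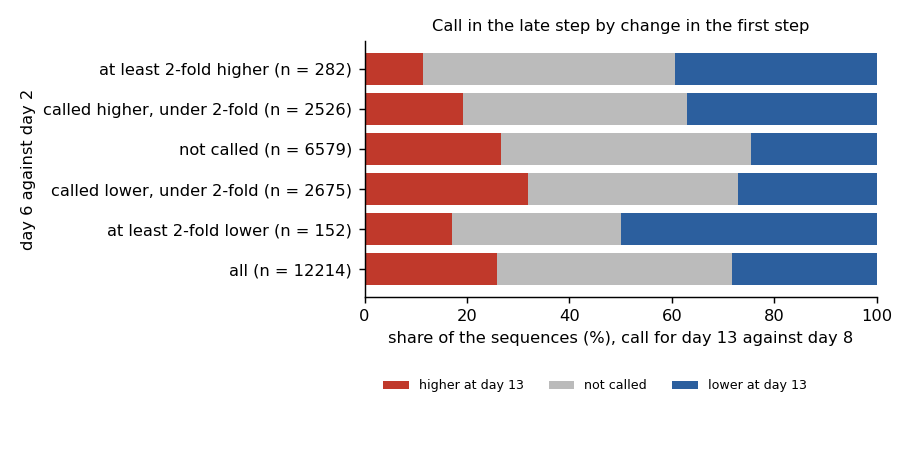
The share of sequences (horizontal axis, %) called higher, not called or called lower at day 13 than at day 8, by their change between day 6 and day 2 (rows). Of the 152 sequences at least 2-fold lower at day 6, 50% were lower again in the late step, beside 28.3% of all sequences.

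The difference between the steps was also tested for each sequence. The first step minus the late step was called above 0 for 3393 sequences (27.8%) and below 0 for 3373 (27.6%). Of the 282 rises it was above 0 for 255, below 0 for 3 and not called for 24. Of the 152 falls it was below 0 for 112, above 0 for 2 and not called for 38. Since the sets were chosen for a large first step, the direction of these counts follows from the choice, and the same holds for the middle step. Set against the middle step, day 8 against day 6, the first step was called higher for 805 sequences (6.59%) and lower for 859 (7.03%), among them 185 of the 282 rises and 111 of the 152 falls in their own direction. These steps share the day 6 arrays, and the total of 1664 moved to 236 without day 6 array 2, 405 without array 1 and 438 without array 3 of that day. It was 2808 without day 2 array 1, and 987 and 1128 without day 2 arrays 2 and 3. Without day 8 array 1, 2 or 3 it was 714, 1046 or 951.

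Large changes in both steps were rare. In 44 sequences both the first and the late step were called at 2-fold or more with opposite signs, 36 of which rose first and 8 fell first. In the same direction, 13 sequences rose and 19 fell at least 2-fold in both steps. Late falls of that size made up 12.8% of the 282 rises, 12.5% of the 152 falls and 3.66% of all sequences. Late rises of that size made up 4.61% of the 282 rises, 5.26% of the 152 falls and 3.58% of all sequences. The sequences with the largest late rise and the largest late fall in the group of 44 are described here.

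paxillus_11911 dipped and then rose far beyond its first level. It had levels of 9.20, 9.39 and 9.24 at day 6, against 10.08, 10.82 and 10.24 at day 2. At day 13 it reached 12.58, 12.65 and 12.79, against 9.43, 9.40 and 9.71 at day 8. The first difference was -1.10 ± 0.16 and the late one 3.16 ± 0.16 (SE; limma adjusted p = 2.31e-04 and 4.56e-08). paxillus_1437 followed the same course, with means of 8.37 ± 0.09 at day 6 and 9.67 ± 0.34 at day 2, then 10.39 ± 0.21 at day 13 and 8.18 ± 0.12 at day 8 (SD, n = 3 each).

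paxillus_1666 went the other way. Its levels were 11.63, 11.51 and 11.88 at day 6, against 10.77, 9.36 and 9.43 at day 2, where array 1 stood well above the other arrays. At day 13 they were 8.73, 8.32 and 8.75, against 11.47, 11.73 and 11.03 at day 8, a late difference of -2.81 ± 0.31 (SE; limma adjusted p = 1.20e-05). Every day 13 array was below every day 2 array. paxillus_10658 showed the same order, with means of 10.02 ± 0.16 at day 6 and 8.09 ± 0.74 at day 2, then 7.10 ± 0.17 at day 13 and 9.51 ± 0.53 at day 8 (SD, n = 3 each).

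**Figure D5:**
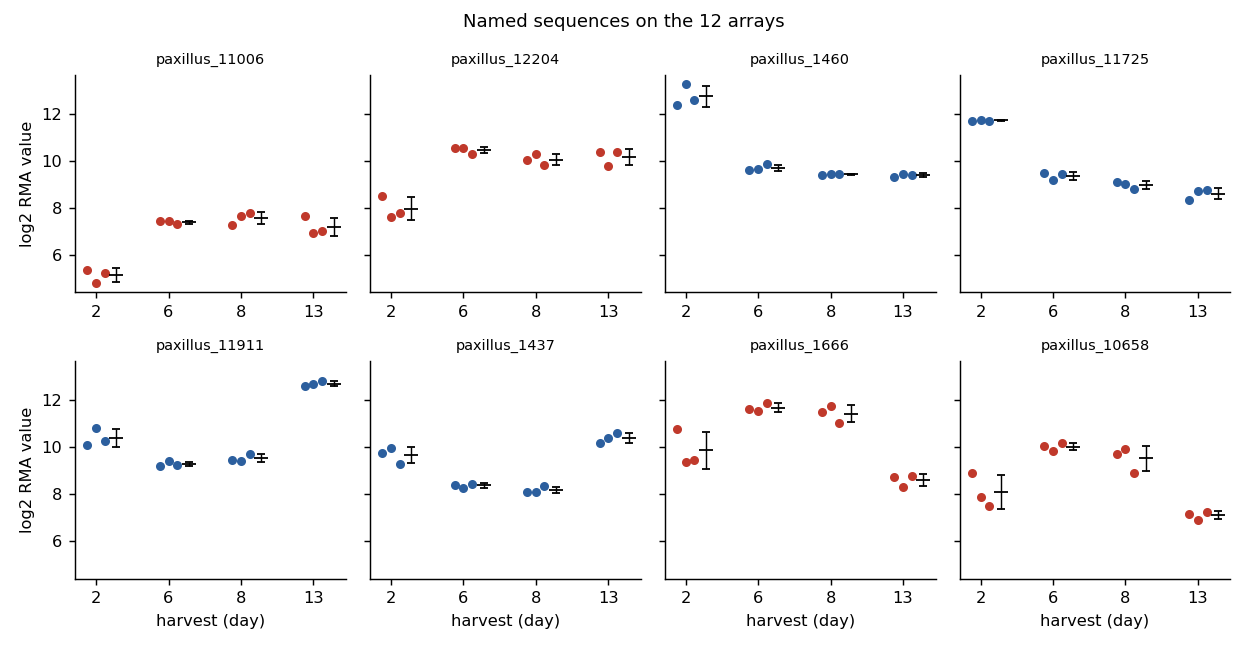
Levels (vertical axis, log2 RMA value) of the 8 named sequences that changed, on the 12 arrays by harvest day (horizontal axis), with the mean and SD of 3 arrays in black beside the points. Red panels rose and blue panels fell between day 2 and day 6; the upper row was chosen by the gap between these days and the lower row by a reversal of at least 2-fold between days 8 and 13.

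Some differences as large as those called did not pass the test. By measured values the largest was that of paxillus_13634, which rests on 2 probe pairs and was 2-fold above the control on 1 of the 3 day 2 arrays. Its levels were 6.34, 6.68 and 6.11 at day 6, against 6.52, 5.52 and 4.04 at day 2, so the days overlapped. The difference of 1.02 had an interval of -0.03 to 2.07 (limma adjusted p = 0.103), and it turned on single arrays: it was 1.60 without day 2 array 1 (limma adjusted p = 7.07e-03) and 0.36 without day 2 array 3 (limma adjusted p = 0.440). paxillus_4061 followed, with 9.83, 11.55 and 10.08 at day 6, against 9.50, 9.85 and 9.58 at day 2. Here a single day 6 array was high, and the difference of 0.84 had a limma adjusted p of 0.068. Without that array, day 6 array 2, the difference was 0.31 (limma adjusted p = 0.262), and without day 6 array 1 it was 1.17 (limma adjusted p = 0.0210). In the late step it was 18.6-fold higher, with means of 14.07 ± 0.40 at day 13 and 9.85 ± 0.20 at day 8 (SD, n = 3 each).

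At the other end, paxillus_121 and paxillus_7224 had the tightest bounds around no change. paxillus_121 had levels of 14.30, 14.28 and 14.26 at day 6, against 14.29, 14.30 and 14.23 at day 2. Its difference was 0.004, with an interval of -0.13 to 0.13, so a change of more than 1.10-fold lay outside it. paxillus_7224 had a difference of 0.001 and an interval of -0.13 to 0.14. Both were bright, at the 98.9 and 97.0 percentile of mean level.

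Some changed sequences carried consecutive numbers. Of the 282 rises, 66 (23.4%) had the next or the previous number in the same set, and of the 152 falls 16 (10.5%). The sets held 2.31% and 1.24% of all sequences. Since either the next or the previous number counts, a set without any grouping would give a higher share than these. A larger set gives more neighbours by its size alone, so 23.4% and 10.5% do not show that rises lay closer together than falls. Over all 11427 pairs of neighbouring numbers, the differences of the pair correlated at r = 0.148. Counted as runs of consecutive numbers, the rises made 244 runs and the falls 144. The longest run held 6 rises, paxillus_1758 to paxillus_1763, with differences between 1.43 and 2.14; it was picked for its length after the values were seen. Their day 6 means ranged between 9.35 and 12.54 and their day 2 means between 7.36 and 10.73. What the numbering stands for is not given in the sources used here, and whether neighbours are parts of the same gene was not tested.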

How the data were processed

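Expression in Paxillus involutus mycelium was measured on 12 subarrays of a 1-colour (Cy3) NimbleGen chip. Per the file headers, the authors summarised probes with RMA, which the submitters' processing notes also name; no version is stated. The deposited values run between 2.81 and 15.6 and were taken as log2 because of that range. The deposited count of probe pairs was 10 for 12203 sequences and lower for 11, per the file headers. The series-wide table held identical values.

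A mean per day was fitted over all 12 arrays in limma 3.58.1 (R 4.3.3), with 8 residual degrees of freedom, no filter and no replicate block. P-values were adjusted by Benjamini-Hochberg over 12214 sequences, and the control feature was left out. The fit was tested on simulated data. Arrays were grouped by title. Their number limits the precision, and the median SE was 0.100.

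Sequences were named by a fixed rule: the 2 rises and 2 falls with the widest gap between days (10 probe pairs), the 2 late rises and 2 late falls with the largest difference among 2-fold reversals, the 2 largest uncalled differences, and the 2 tightest intervals around 0. The groups and rules were chosen with earlier results of these data known. Alternatives covered scaling, filters, prior, weights, block, arrays, thresholds and day labels.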

Additional observations from a re-analysis of the deposited data

Results flagged for a closer look

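The first and the late step, which share no array, moved some sequences in opposite directions. The difference between the steps was also past the limma threshold for them. That condition left out no sequence called in both steps with opposite signs, so it adds no support. The calls of the steps use the same spread of a sequence over all 12 arrays, so they are not fully separate. In all, 1045 sequences rose between day 2 and day 6 and fell between day 8 and day 13, and 879 fell in the first step and rose in the late step. These were 37.2% of the called rises, beside 28.3% of all sequences lower in the late step, and 31.1% of the called falls, beside 25.8% of all sequences higher. With the labels of days 6 and 8 exchanged, 1546 of 7256 called sequences were opposite, against 1924 of 5635 with the titles. In the late step 28.9% of all sequences were then lower and 29.6% higher, and the opposite part of the calls lay below each of these shares. The excess of reversals was thus absent with the days exchanged. Changes of at least 2-fold with opposite signs in both steps were called for 44 sequences.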

How the results depend on the processing

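Under settings that left out no single array, 59 of 71 count values stayed within 1.5 times the original; these include a fit on the 6 arrays of days 2 and 6. A threshold of 0.01 left 3749 sequences for day 6 against day 2, 260 for the first minus the middle step and 1038 opposite in the late step. A minimum of 1.5-fold in the test, stricter by construction, left 203 for day 6 against day 2, 193 of them at least 2-fold, 984 for day 13 against day 8, 1557 for the first minus the late step, 26 for the first minus the middle step and 22 opposite. Array weights gave 4833 for the first minus the middle step; the cause was not tested. With days 6 and 8 exchanged, 7256 sequences were called, 1012 of them at least 2-fold changed, 6225 differed between first and middle step and 1546 were opposite in the late step. With 1 array left out, the first minus the middle step ranged over 236 to 2808, day 6 against day 2 over 4523 to 5863 and its 2-fold changes over 353 to 587. Same-numbered arrays of days 6 and 2 deviated together at r = 0.16, -0.04 and 0.06, and arrays of these days in any pairing at -0.30 to 0.63. So few arrays, whose deviations within a day sum to 0, cannot settle whether the numbers pair them. The replicate block gave 5536 calls. Of the named sequences, 124 of 127 values under other settings and 142 of 144 with an array left out kept their call; the others were gained calls of paxillus_13634 and paxillus_4061. The sign changed in 5 of 22 and 6 of 24 such values of the sequences with the tightest intervals, whose differences are near 0, and in 0 of 105 and 0 of 120 values of the others. Counts of 2-fold rises and falls and of their late calls were recomputed after seeing the data. Fewer dim than bright sequences could be bounded.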
